A study of Mus musculus with 5 samples.

Results

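The Ly6 genes encode small surface proteins of the Ly6/uPAR superfamily, and 8 of them were followed here: Ly6a, Ly6c1, Ly6c2, Ly6d, Ly6e, Ly6f, Ly6h and Ly6i. They are the rows of the deposited table of 23997 gene rows that carry these 8 symbols. The libraries came from whole kidneys of mice aged 8 weeks, with 3 controls labelled as uninduced (control 0, 1 and 2) and 2 libraries labelled as Pkd1 knockout (knockout 0 and 1). Pkd1 encodes polycystin-1, whose loss causes cystic kidneys, and the series asked what metalloproteinases do to the tubule basement membrane as tubules widen. The sample titles call the mutants SKO and the design text calls them PkdTKO. Strain, sex, inducing agent and Cre driver are not stated by the labels. Whether the libraries are from different animals is not stated either, so a p-value here covers the spread among 5 libraries, and that spread may be technical. The members were chosen by their FPKM in these same 5 libraries, so their differences between the groups are given as a description. Calls of the fit over all genes are counted for them only beside the share of all rows called, and support nothing.

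A Ly6 protein is a short chain folded into a compact domain by cysteine bridges, and most members are held at the outer face of the membrane by a glycosylphosphatidylinositol (GPI) anchor. Several are used as markers of blood, endothelial and epithelial cells, and some are induced by interferon. In the mouse the cluster has expanded by duplication, so that neighbouring genes resemble each other closely.

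All 8 genes lie on mm10 chromosome 15 within 805 kb, in the GENCODE M21 annotation. Ly6d (ENSMUSG00000034634.7, 74762056 to 74763620, minus strand) comes first, followed by Ly6e (ENSMUSG00000022587.14, 74955051 to 74959905, plus strand) and Ly6i (ENSMUSG00000022586.11, 74979534 to 74983430, minus strand). Ly6a (ENSMUSG00000075602.10, 74994877 to 74998031), Ly6c1 (ENSMUSG00000079018.10, 75044018 to 75048830) and Ly6c2 (ENSMUSG00000022584.14, 75108158 to 75111970) follow on the minus strand. Ly6f (ENSMUSG00000022583.12, 75268421 to 75272235) is on the plus strand, and Ly6h (ENSMUSG00000022577.17, 75551268 to 75567255) is the last, on the minus strand.

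How far the members resemble each other matters for their values, because a short read from a shared stretch cannot be placed on 1 gene. The sequences below are the first 180 coding bases of the 5 closest members, 5′ to 3′, from GENCODE M21 transcripts, with capitals at each base that differs from the Ly6c1 base it was aligned to.
Ly6c1: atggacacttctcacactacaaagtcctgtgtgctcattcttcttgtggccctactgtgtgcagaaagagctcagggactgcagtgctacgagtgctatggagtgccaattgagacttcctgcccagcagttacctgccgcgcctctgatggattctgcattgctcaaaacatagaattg
Ly6c2: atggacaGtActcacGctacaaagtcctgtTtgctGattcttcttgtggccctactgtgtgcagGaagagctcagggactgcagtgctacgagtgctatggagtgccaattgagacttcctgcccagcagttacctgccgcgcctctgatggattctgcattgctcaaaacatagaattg
Ly6f: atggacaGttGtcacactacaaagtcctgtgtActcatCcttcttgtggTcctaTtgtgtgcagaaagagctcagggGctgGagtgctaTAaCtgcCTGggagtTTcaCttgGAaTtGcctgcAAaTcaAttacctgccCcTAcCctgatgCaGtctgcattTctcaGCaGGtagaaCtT
Ly6a: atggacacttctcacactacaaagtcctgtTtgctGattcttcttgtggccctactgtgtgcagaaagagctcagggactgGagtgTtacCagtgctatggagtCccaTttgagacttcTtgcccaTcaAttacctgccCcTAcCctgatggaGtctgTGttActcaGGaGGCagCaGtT
Ly6i: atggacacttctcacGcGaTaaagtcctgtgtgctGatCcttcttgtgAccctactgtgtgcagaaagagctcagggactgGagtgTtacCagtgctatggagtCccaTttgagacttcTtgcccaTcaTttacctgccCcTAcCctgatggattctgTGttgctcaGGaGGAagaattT
In this stretch Ly6c2 differed from Ly6c1 at 6 bases, Ly6a and Ly6i at 26 each and Ly6f at 38. Over the whole coding sequence Ly6c1 and Ly6c2 were 97.7% identical, counted over all columns of a global alignment. Ly6a was 86.3% identical to Ly6i, 84.6% to Ly6f and 81.8% to Ly6c1. Ly6d, Ly6e and Ly6h were between 45.4% and 52.2% identical to every other member. The heat map of coding identity shows the 5 close genes as 1 block. Each coding sequence was short, from 381 bases in Ly6d to 480 in Ly6h, and held between 10 and 13 cysteine codons.

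**Figure D1:**
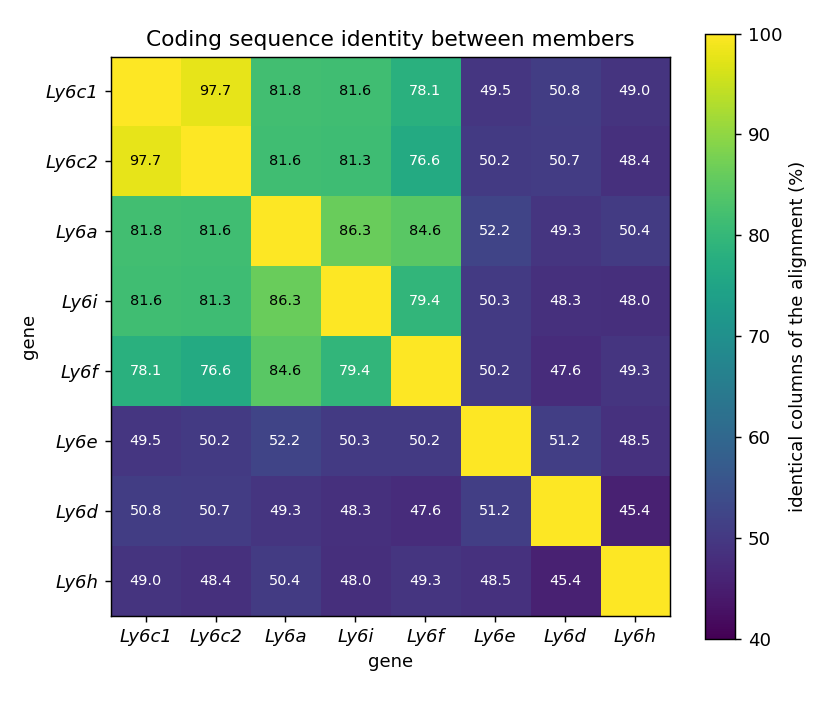
Heat map of the percentage of identical alignment columns between the coding sequences of the 8 members, with the gene on each axis and the colour scale running from 40 to 100%. Ly6c1 and Ly6c2 are the closest pair at 97.7%, and Ly6e, Ly6d and Ly6h stand apart from the rest.

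Exact sharing was counted over windows of 50 bases of every annotated transcript. Of the Ly6c1 windows 32.8% also occurred in a transcript of another gene, mostly Ly6c2, and of the Ly6a windows 19.0% did, mostly in Ly6c1. The share was 14.5% for Ly6c2, 4.76% for Ly6i, 0.206% for Ly6h and 0% for Ly6d, Ly6e and Ly6f. With up to 2 mismatches allowed against the genes of the region, the share was 73.5% for Ly6c1, 41.0% for Ly6a, 38.9% for Ly6c2, 31.0% for Ly6i and 11.2% for Ly6f, and it was 0% for Ly6d, Ly6e and Ly6h. The few exact Ly6h matches were in genes outside this search. Over windows of 100 bases exact sharing was 10.1% for Ly6c1, 5.81% for Ly6c2, 1.45% for Ly6a and 0% for Ly6i, so it depends on the length of the stretch read. The levels of Ly6a, Ly6c1, Ly6c2 and Ly6i are therefore uncertain, since the labels do not say how reads that fit several genes were handled. The Ly6e and Ly6d values do not rest on such windows, and the Ly6f values do so for a small part of the transcript.

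Levels are in FPKM, fragment counts scaled to transcript length and to library size, which is a level per length and so can be compared between genes. In the controls the members spanned from Ly6a, higher than 99.1% of tested rows, to almost none. The order by control mean was Ly6a, Ly6e, Ly6c1, Ly6d, Ly6c2, Ly6f, Ly6i and Ly6h, and no neighbours in this order overlapped over the 3 controls. Summed over the 8 genes, the level was 796.1 ± 76.8 FPKM (SD, n = 3) over the controls, then 1372 and 613.9 for knockout 0 and 1. Ly6a alone made up 76.2% to 78.9% of that sum over the controls, then 66.6% and 71.3% for knockout 0 and 1.

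**Figure D2:**
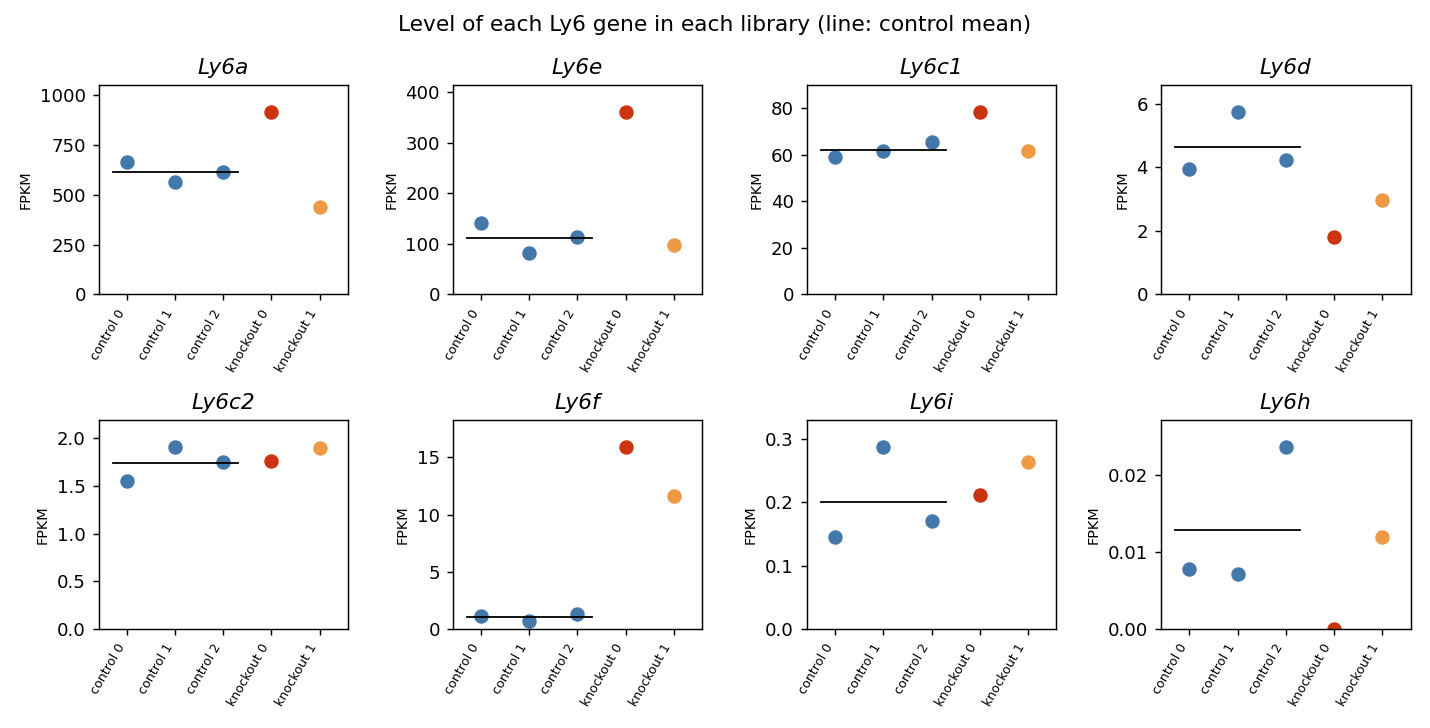
FPKM of each member in each of the 5 libraries, 1 panel per gene on its own linear axis from 0, with the line at the mean of the 3 controls. Ly6f is high in both knockout libraries, Ly6e and Ly6a are highest in knockout 0, and Ly6d lies below the controls in both.

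Ly6f, a close relative of Ly6a, was the member with the widest gap between the groups. Its FPKM was 1.14, 0.687 and 1.28 over control 0 to 2, then 15.9 and 11.6 for knockout 0 and 1. Both knockout libraries were far above every control, at 15.3 and 11.2 times the control mean of 1.04 ± 0.311 FPKM (SD, n = 3). On the log2(FPKM + 1) scale used for all differences here, which understates the change of low genes, the difference was 2.86 (SE 0.187). It was the largest of the members and rank 36 from the top among the 12640 tested rows. Rows ranked above it include Gapdh (9.90) and Umod (9.89), both listed at 0 in every control, and Xist (5.63). By level Ly6f took the sixth place among the members in the controls and the fourth in both knockout libraries, above Ly6d and Ly6c2.

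The RefSeq table of promoters (GRCm38.p6, the build of mm10) matched 3 of the 8 members, Ly6c1, Ly6c2 and Ly6f. They are printed here because Ly6f differed between the groups while its relatives Ly6c1 and Ly6c2 did not do so in both knockout libraries. Each is the 250 bases before the start, 5′ to 3′ on the strand of the gene, with capitals at the letters TATAAA and CCAAT.
Ly6f, chr15:75268171-75268420, plus strand: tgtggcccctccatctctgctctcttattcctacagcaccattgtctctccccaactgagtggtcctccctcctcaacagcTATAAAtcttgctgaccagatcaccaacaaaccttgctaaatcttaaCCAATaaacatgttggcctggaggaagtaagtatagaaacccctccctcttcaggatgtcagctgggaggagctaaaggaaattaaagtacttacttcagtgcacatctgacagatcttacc
Ly6c1, chr15:75048838-75049087, minus strand: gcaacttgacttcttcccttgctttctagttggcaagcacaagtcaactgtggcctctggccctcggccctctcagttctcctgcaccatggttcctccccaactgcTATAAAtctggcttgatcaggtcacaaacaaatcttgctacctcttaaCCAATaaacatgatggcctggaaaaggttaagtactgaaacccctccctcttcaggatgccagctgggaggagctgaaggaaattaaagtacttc
Ly6c2, chr15:75111972-75112221, minus strand: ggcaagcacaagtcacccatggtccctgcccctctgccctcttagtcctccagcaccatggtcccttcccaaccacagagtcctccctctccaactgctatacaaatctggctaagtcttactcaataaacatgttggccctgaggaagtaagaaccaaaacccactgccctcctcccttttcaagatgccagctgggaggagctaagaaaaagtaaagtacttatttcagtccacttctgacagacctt
The best local alignment of the Ly6f and Ly6c1 stretches covered 223 columns, 75.8% of them identical, and that of Ly6f and Ly6c2 covered 254 columns at 71.3%. Searched on both strands, TATAAA and CCAAT each occurred 1 time in Ly6f and 1 time in Ly6c1 and were absent from the Ly6c2 stretch. In Ly6f and Ly6c1, TATAAA began at -169 and -143 from the start, and CCAAT at -122 and -95. Of all 32851 promoters in the table, cut to the same length, 12.4% held TATAAA and 33.8% held CCAAT. The letters TTCNNNGAA, the core bound by STAT factors, were in none of the 3 stretches, against 7.02% of all promoters. No motif overlapped another in these stretches, and a match is a description of letters only.

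Ly6e, an interferon-inducible protein also known as TSA-1, was high in knockout 0 alone. Its FPKM was 141.7, 81.2 and 114.1 over control 0 to 2, then 360.8 and 97.6 for knockout 0 and 1. Knockout 0 stood at 3.21 times the control mean of 112.3 ± 30.3 (SD, n = 3), whereas knockout 1 lay inside the range of the controls. The log2 difference was 1.71 for knockout 0 and -0.16 for knockout 1, so the pooled value of 0.77 (SE 0.569) describes neither library.

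Ly6a, stem cell antigen 1 (Sca-1), a marker of blood stem cells and of endothelium, was the most abundant member in every library. Its FPKM was 662.8, 565.5 and 614.7 over control 0 to 2, then 913.6 and 437.8 for knockout 0 and 1. The knockout libraries lay on opposite sides of the controls, at 149% and 71.3% of the control mean of 614.3 ± 48.7 (SD, n = 3). Their log2 differences of 0.57 and -0.48 left a pooled difference of 0.04 (SE 0.31).

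Ly6c1 and Ly6c2 encode the Ly6C antigens, found on endothelial cells, monocytes and some T cells, with Ly6c2 best known from inflammatory monocytes. Ly6c1 read 58.8, 61.6 and 65.3 FPKM over control 0 to 2, then 78.2 and 61.8 for knockout 0 and 1. Only knockout 0 was above the controls, at 126% of their mean of 61.9 ± 3.29 (SD, n = 3), and knockout 1 was at 99.8%. Ly6c2 read 1.55, 1.91 and 1.75 over the controls, then 1.76 and 1.89 for knockout 0 and 1, so both knockout libraries lay within the control range. Given the shared stretches of these genes, the Ly6c2 value was also read as a share of Ly6c1, and it was 2.64%, 3.10% and 2.68% over the controls, then 2.25% and 3.06% for knockout 0 and 1.

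Ly6d, the antigen ThB of thymocytes and B-lineage cells that is also found on squamous epithelium, was low in both knockout libraries. Its FPKM was 3.93, 5.73 and 4.24 over control 0 to 2, then 1.82 and 2.98 for knockout 0 and 1. Both knockout values lay below the lowest control, at 39.2% and 64.3% of the control mean of 4.63 ± 0.961 (SD, n = 3). The log2 difference was -0.74 (SE 0.204).

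Ly6i and Ly6h were close to absent and did not reach the mean FPKM of 1 needed to enter the fit. Ly6i, a close relative of Ly6a, read 0.145, 0.288 and 0.171 FPKM over control 0 to 2, then 0.211 and 0.264 for knockout 0 and 1, with full overlap between the groups. Ly6h, which is expressed in brain and binds nicotinic acetylcholine receptors, had 0.00782, 0.00717 and 0.0237 in the controls, was listed at 0 in knockout 0 and had 0.012 in knockout 1. Scaled by the relative depth of the libraries, the Ly6h values stood in the ratio 1 to 0.999 to 2.02 in the controls, with 0 in knockout 0 and 2.04 in knockout 1. Such values are near whole multiples of the lowest, as a few fragments would give, and at this depth no difference was detectable.

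Of the 6 members that were tested across all genes, 1 passed the threshold (limma, Benjamini-Hochberg adjusted p under 0.05) as higher and 0 as lower, against 6.34% of all tested rows in either direction, 2.73% as higher and 3.62% as lower. That member was Ly6f. At an unadjusted p under 0.05 by limma, 1 member was higher and 1 lower, where 1578 and 2102 of 12640 rows were. The groups did not overlap in Ly6f and Ly6d, 2 of 6, against 48.2% of all tested rows. Since these values chose the members, nothing is read from the counts. Without control 0 the count of members that passed was 0, and with knockout 0 as the only mutant library 4 passed, Ly6a, Ly6e and Ly6f as higher and Ly6d as lower, where 11.5% and 9.09% of all rows did and 20.6% in either direction. With knockout 1 as the only mutant library Ly6f alone passed, where 8.34% of all rows did, 4.09% as higher and 4.25% as lower. Such a fit takes the spread of the lone library from that of the controls. Above every control were 4 of the 8 members in knockout 0, Ly6a, Ly6c1, Ly6e and Ly6f, and 1 in knockout 1, Ly6f, against 34.2% and 38.4% of tested rows. Below every control were 2 in each library, Ly6d and Ly6h in knockout 0 and Ly6a and Ly6d in knockout 1. The shares of tested rows were 43.9% and 38.5%, and they leave out rows as low as Ly6h and Ly6i. The plot of differences by gene shows the same split.

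**Figure D3:**
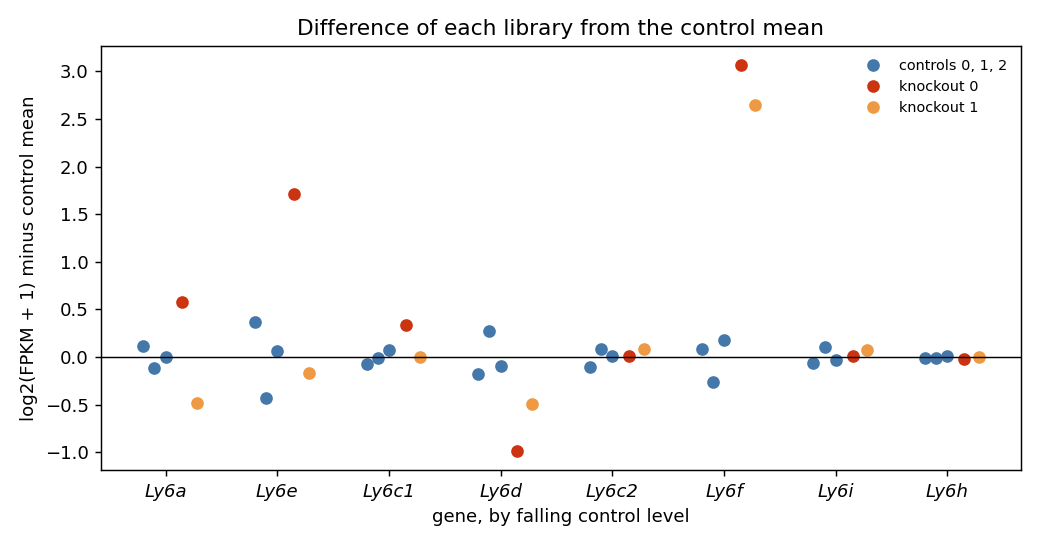
Difference of each library from the control mean on the log2(FPKM + 1) scale, with genes on the horizontal axis by falling control level and 1 point per library. The knockout points lie together for Ly6f (3.06 and 2.65) and apart for Ly6e (1.71 and -0.16) and Ly6a (0.57 and -0.48).

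The 2 knockout libraries differed from each other in ways that moved with several members. Relative to control 0, low values stepped as they would at a depth of 1.09 and 0.669 for control 1 and 2, and at 0.57 and 1.33 for knockout 0 and 1, so knockout 0 was the shallowest library. Summed FPKM of 12 macrophage markers was 84.7 to 90.9 over the controls, then 318.7 and 111.7 for knockout 0 and 1, with all 12 above every control in each library, where both libraries were above for 21.9% of tested rows. For 9 monocyte markers the sums were 38.2 to 41.1, 196.3 and 63.5, and for 11 T and NK cell markers 4.87 to 6.02, 16.8 and 7.85. Markers of tubule injury summed to 247.4 to 261.9 over the controls, then 805.3 and 195.2 for knockout 0 and 1. In knockout 0, 11 of 11 were above every control, where 34.2% of tested rows were. In knockout 1, 5 were above and 4 below, where 38.4% and 38.5% of tested rows were. Clu, the most abundant of these markers in the controls, was at 325.4 in knockout 0 and 86.3 in knockout 1. Neutrophil markers were low, with sums of 2.35 to 3.16, 4.09 and 2.84 and with Mpo and Elane at 0. Of the 9, 6 were above every control in knockout 0, where 34.2% of tested rows were, but only 1 of the 9 was tested. Xist, the RNA of the inactive X of female cells, was at 0.0222 to 0.0275 over the controls, then 30.8 and 80.3 for knockout 0 and 1, while Y-linked Ddx3y was at 17.8 to 18.6, 7.30 and 0.00194. Knockout 0 thus held both Xist and Y-linked RNA. The labels do not say whether it came from more than 1 animal, which bears on every knockout 0 value and on the count of 2 mutant libraries and was not tested. The sex of the RNA and the genotype label cannot be told apart for any member, Ly6f included. Pkd1 itself did not pass the test as a whole transcript (limma adjusted p = 0.646), at 3.40 ± 0.161 (SD, n = 3) over the controls, then 2.72 and 3.60 for knockout 0 and 1, so it does not check the labels. The kidney marker Aqp2, a water channel of the collecting duct, was high throughout (248.2 to 351.4 FPKM), but Lrp2 and Slc34a1 were listed at 0 in every library and Umod in the controls, as was Gapdh, so an exact 0 in this table can be a failed estimate.

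For Ly6a, Ly6c1 and Ly6e, 3 lists bear on the cells they mark or the signal they answer to. The 18 endothelial markers were mixed in knockout 0, where 7 were above and 6 below every control, against 34.2% and 43.9% of tested rows. In knockout 1, 12 were above and 1 below, against 38.4% and 38.5%. The endothelial sum was 306.7 to 318.6 over the controls, then 336.1 and 334.3 for knockout 0 and 1. Fibroblast markers summed to 118 to 162.9, 242.9 and 175.9. Col1a1, Col1a2 and Col3a1 held most of the excess in knockout 0 and lay within the control range in knockout 1. Of the 12 fibroblast markers 8 were above every control in each library, where 34.2% and 38.4% of tested rows were. Pdgfra was below every control in knockout 0. Interferon-induced genes summed to 355.6 to 361.8 over the controls, then 787.3 and 389.4 for knockout 0 and 1, with 47 of 48 above every control in knockout 0, where 34.2% of tested rows were. In knockout 1, 22 were above and 13 below every control, where 38.4% and 38.5% of tested rows were. In bulk tissue a change in the number of cells and a change in RNA per cell cannot be told apart, and the part of these cell types in the Ly6 values was not tested. The plot of marker sums shows Ly6e beside them.

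**Figure D4:**
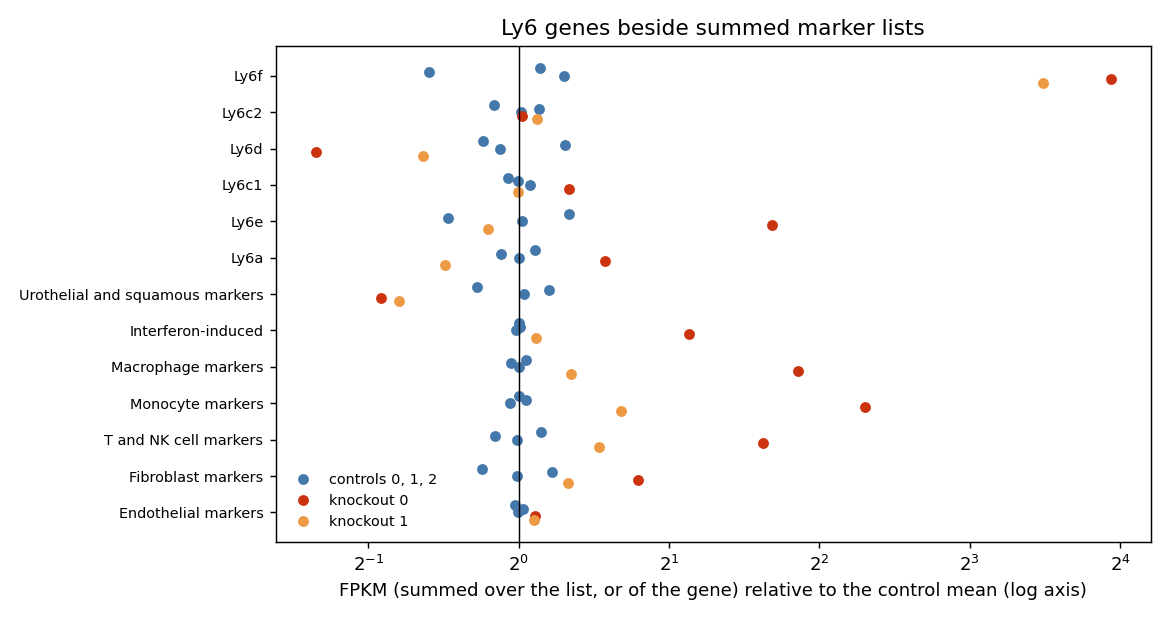
FPKM of each tested member, or summed over each marker list, divided by the mean of the 3 controls, on a log axis with 1 point per library. Interferon-induced genes, macrophage, monocyte and T cell markers and Ly6e are highest in knockout 0. The endothelial sum lies a little above the controls in both knockout libraries, and Ly6f is high in both.

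By limma over both knockout libraries 2 of 44 interferon-induced genes rose and 0 fell, where 2.73% and 3.62% of all rows did. At an unadjusted p under 0.05, 11 were higher and 0 lower, where 1578 and 2102 of 12640 rows were. The median log2 difference was 0.54 against -0.02 over all tested genes. All 44 fitted differences were positive. Gbp3, an interferon-induced GTPase, rose from 4.94 ± 0.418 FPKM (SD, n = 3) to 23.0 and 14.2 in knockout 0 and 1 (log2 difference 1.69, SE 0.199, limma adjusted p = 0.0207). Ddx58, the RNA sensor RIG-I, rose from 7.18 ± 0.273 to 13.9 and 10.9 (limma adjusted p = 0.0337). Ifit2 did not pass, at 5.24 ± 0.341, 12.7 and 7.72 (limma adjusted p = 0.0708). With knockout 0 as the only mutant library 38 of the 44 were called higher, where 11.5% of all rows were, and with knockout 1 as the only one 3 were, where 4.09% of all rows were. Their median log2 difference was 0.96 in knockout 0 and 0.05 in knockout 1. Without control 0, 1 or 2 the count over both libraries was 0.

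For Ly6d, the markers of urothelium and squamous epithelium are the nearest list. Of these 12 genes 0 passed in the test of both libraries by limma. At an unadjusted p under 0.05, 4 of the 8 tested genes were lower and 0 higher, where 2102 and 1578 of 12640 rows were. The 12 genes summed to 36.7 to 51.0 FPKM over the controls, then 23.5 and 25.6 for knockout 0 and 1. Below every control were 9 and 7 of them, where 43.9% and 38.5% of tested rows were. In knockout 1, 2 of the 12 were above every control, where 38.4% of tested rows were. Without Sprr1a, a cornified envelope gene that made up much of the sum, the range was 21.2 to 27.9 in the controls, with 7.22 in knockout 0 and 15.8 in knockout 1. Upk3a, a uroplakin of the bladder and renal pelvis lining, had 4.81, 6.39 and 5.51 over the controls, then 0.858 and 2.47 for knockout 0 and 1. B-lineage markers, the other cells known for Ly6d, summed to 9.21 to 17.8 over the controls, then 18.0 and 17.6 for knockout 0 and 1. Most of that sum was Jchain. Of the 8 markers 7 were above every control in knockout 0 and 6 in knockout 1, with Mzb1 below in both. Of tested rows 34.2% and 38.4% were above, and only 3 of the 8 markers were tested. How much lining of the renal pelvis each sample held was not measured, and its part in the Ly6d values was not tested.

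Other genes of the superfamily were read from a list of 41, of which 36 had a row in the table, 7 of them under an older symbol, and 11 were tested. By limma, adjusted over all genes, 0 rose and 0 fell, where 2.73% and 3.62% of all tested rows did. At an unadjusted p under 0.05, 2 were higher and 0 lower, where 1578 and 2102 of 12640 rows were. The median log2 difference of the 11 was 0.19. Cd59a, which blocks the membrane attack complex of complement, came nearest, at 17.3, 12.5 and 11.7 FPKM over control 0 to 2, then 23.9 and 30.6 for knockout 0 and 1 (log2 difference 0.94, SE 0.193, limma adjusted p = 0.0533). Both knockout libraries were above every control, and with rows holding a 0 left out the count for the list was 1. Lynx1, a modulator of nicotinic receptors, was at 5.20 ± 0.975 (SD, n = 3), 6.51 and 8.38. Psca, prostate stem cell antigen, an epithelial surface protein, was at 19.6 ± 1.13, 4.75 and 15.6 (limma adjusted p = 0.174), and its neighbour Lypd2 at 9.60 ± 2.47, 2.27 and 7.90. Gpihbp1, which carries lipoprotein lipase across capillary endothelium, was at 8.60 ± 0.761, 24.8 and 7.26, so it was high in knockout 0 alone, as Ly6e was. With knockout 0 as the only mutant library 2 relatives were called higher and 2 lower, where 11.5% and 9.09% of all rows were, and with knockout 1 as the only one 0 were called.

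Of 31 tested genes that build and attach the GPI anchor, 1 rose and 0 fell by limma. Of all tested rows 2.73% and 3.62% did. At an unadjusted p under 0.05, 2 of the 31 were higher and 4 lower, where 1578 and 2102 of 12640 rows were. The median log2 difference of the 31 was -0.08. Pigs, a subunit of the transamidase that joins the anchor to the protein, rose from 18.9 ± 0.757 FPKM (SD, n = 3) to 27.3 and 25.0 (log2 difference 0.45, SE 0.0748, limma adjusted p = 0.0369), a call that was lost without any 1 of the controls. Pigx, a subunit of the mannosyltransferase that adds the first mannose, was at 29.6 ± 1.51, 23.3 and 19.6 (limma adjusted p = 0.0595). Dpm3 and Dpm1, subunits of the enzyme that makes dolichol phosphate mannose, were at 63.5 ± 3.30, 54.3 and 48.1, and at 26.3 ± 0.926, 22.7 and 22.4. In the other direction, Pgap2 was at 10.8 ± 0.815, 14.4 and 12.1 (limma adjusted p = 0.158), and Pigt at 42.7 ± 2.53, 53.5 and 44.2.

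The neighbourhood of the cluster was read in order along the chromosome. Of the genes within 200 kb of a member, 22 that are not members had a row, and 13 were tested. By limma 3 rose and 0 fell, where 2.73% of all tested rows rose. The largest difference was that of 9030619P08Rik, annotated as a transcribed unprocessed pseudogene (mm10 chromosome 15, 75427606 to 75431829, minus strand), which lies between Ly6f and Ly6h. Its FPKM was 22.1, 17.0 and 22.6 over control 0 to 2, then 103.1 and 160 for knockout 0 and 1. Both knockout libraries were far above the controls, at 5.01 and 7.78 times their mean (log2 difference 2.60, limma adjusted p = 0.00956). Its longest transcript aligned to the Ly6a coding sequence over 401 columns with 73.6% identity, and to that of Ly6f over 402 columns with 71.4%, against 53.2% for Ly6d, 53.1% for Ly6e and 50.7% for Ly6h. Ly6f shared none of its 50-base windows with it exactly.

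The other neighbours that rose were Them6, from 12.9 ± 2.29 FPKM (SD, n = 3) to 26.7 and 24.6 (limma adjusted p = 0.0337), and Jrk, from 0.941 ± 0.0323 to 1.72 and 1.86 (limma adjusted p = 0.0471). Both lie beyond Ly6d at the far end from Ly6f. Of the tested genes between Them6 and Ly6f, Lynx1 was above every control in both knockout libraries, and Ly6d and D730001G18Rik were below in both. Lypd2, Ly6e, Ly6a, Ly6c1 and Ly6c2 did neither. Of all tested rows 21.9% were above in both and 26.3% below.

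**Figure D5:**
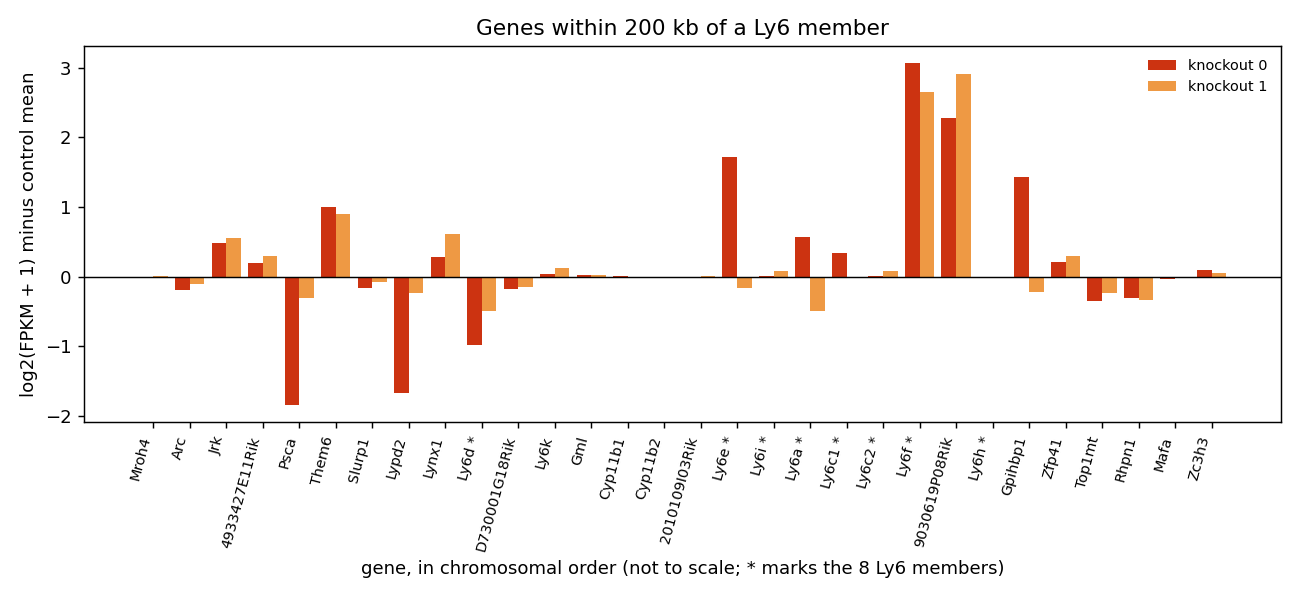
Difference of knockout 0 and knockout 1 from the control mean on the log2(FPKM + 1) scale for the 30 genes of the table within 200 kb of a member, in chromosomal order and not to scale, with stars on the 8 members. Ly6f and 9030619P08Rik are the only genes above 2 in both libraries, and Psca, Lypd2, Ly6e and Gpihbp1 differ mainly in knockout 0.

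Genes with the pattern nearest to a member were taken from the 11869 tested genes that hold no 0 and have a gene name, leaving out Gm and Rik symbols and symbols turned into dates, by the Euclidean distance between log2(FPKM + 1) profiles over the 5 libraries, each centred on its control mean. For Ly6f they were the complement component C3 (distance 0.9), the X-linked gene Mid1 (0.907), the transporter Slc17a2 (0.976) and Hdc, histidine decarboxylase (1.13). These distances are large beside those of the other members, since few genes differ as much. The pseudogene 9030619P08Rik, which the choice of named symbols passed over, was nearer at 0.828. For Ly6e the nearest were Bcl3, a regulator of NF-kappaB (0.32), the interferon-induced Gbp6 (0.407), Ankrd1 (0.414) and Il34, a ligand of the macrophage receptor Csf1r (0.423). For Ly6a they were Foxred2 (0.0772), Tmem176b (0.126), Acot9 (0.177) and Slc51a, a bile acid transporter subunit (0.18). Tmem176b had an abundance like that of Ly6a, with 767.6, 653.8 and 704.3 FPKM over the controls, then 1029 and 464.4 for knockout 0 and 1. Over 5 libraries many genes can share a shape, so the distances describe these samples only.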

How the data were processed

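RNA of 5 whole-kidney libraries was extracted with TRIzol, and 1 µg per library entered an Illumina mRNA-seq kit, per the labels' protocols. The deposited table holds FPKM computed by the authors, 1 column per library, with 0 columns left unmapped. Per the submitters' processing notes, bcl2fastq and build mm10 were used. No source used here gives the aligner, the FPKM program, the annotation or the strand setting. The number of fragments is not given with the FPKM, so only a relative depth was taken, from the commonest ratio between libraries (within 0.01 on the log2 scale) of values under an FPKM of 0.05. The values gave 6.36% to 16.1% of rows at the commonest ratio, lowest for the pair of knockout libraries.

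Differences were computed on log2(FPKM + 1), with a pseudocount of 1, and fitted where the mean FPKM over all libraries reached 1, in 12640 rows. The test was limma 3.58.1 in R 4.3.3 (two-sided, with a variance trend), and p-values of the whole table were adjusted by Benjamini-Hochberg, with calls at under 0.05. It was tested on simulated data in which every gene and library had the same spread. These libraries do not have such a spread, so that run does not show how the calls hold here. The smallest p of an exact permutation of these libraries is 0.1, so none was used. Of the tested rows 87 held a 0 in some library. Sequences and positions came from GENCODE M21 and RefSeq, aligned with Biopython 1.88. Plots were drawn with matplotlib 3.10.9 in Python 3.11.15.

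The members, the gene lists and the alternatives were chosen with earlier results of these data known. The rule for named genes took all 8 members, up to 3 tested genes in each direction of each tested list by adjusted p, the 4 nearest patterns of the 2 members with the largest differences and of the most abundant member, and the genes within 200 kb. Marker genes named beside them, Pkd1 and Gapdh were chosen after their values were seen. The alternatives were another pseudocount, other filters, other scalings, other variance priors, rows holding a 0 left out, the replicate number as a block, and each library left out.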

Additional observations from a re-analysis of the deposited data

How the results depend on the processing

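Over the alternatives that can change a log2 difference, 69 of 80 values for the 8 members moved by less than the spread between replicates. The other 11 moved by more, of which 6 were Ly6a, Ly6c1 and Ly6e without 1 knockout library. That spread is the residual SD within the groups, so it is wide where the 2 knockout libraries differ, as for Ly6a and Ly6e. The replicate block gave every member the same value as leaving out control 2, so these settings are not separate. The Ly6f difference ranged from 2.65 to 3.63. The count of all genes that passed, 802, was 247 without a filter on low values and 36 to 2599 with 1 library left out. TPM scaling gave 454 genes higher and 266 lower, where FPKM gave 345 and 457. The count of members that passed, 1, ranged from 0 to 4 with 1 library left out, and Ly6f was the one lost without control 0. The count of superfamily relatives, 0, was 1 at a mean FPKM of at least 5 and with rows holding a 0 left out, and 0 to 4 with 1 library left out. The count of GPI anchor genes, 1, was 0 without a filter, 2 at a mean FPKM of at least 5 and 0 to 2 with 1 library left out. The count of interferon-induced genes, 2, was 0 without a filter and 0 to 38 with 1 library left out.

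A fit with a replicate block passed 28 genes in all, 1 member, 0 relatives, 0 GPI anchor genes and 0 interferon-induced genes. Whether the numbers pair the samples is not stated by the labels. The deviations of same-numbered libraries correlated at 0.0863 and 0.00236 across genes, and those of unlike numbers at -0.0918 to 0.0918. The deviations of the 2 knockout libraries from their mean are exact negatives of each other. These correlations are thus not independent and cannot decide whether the samples were paired. With 2 mutant libraries of unlike depth and marker levels, a difference seen in 1 of them has no replicate.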
